A study of Rattus norvegicus with 24 samples.

Results

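Fixation of a patch on the infarcted rat heart was compared by RNA sequencing between 2 modes: a patch that anchors itself in the tissue with microneedles, and a patch fixed with sutures. The comparison used the 12 libraries labelled Microneedle patch (n = 6) or Sutured patch (n = 6), out of 24 libraries in the series. The members were taken from the treatment labels, and no measured value was used to choose them. All 12 came from the left ventricle of outbred Sprague Dawley rats after myocardial infarction (MI). Tissue of the infarct region was collected at day 7. The other 12 libraries were infarct without a patch (MI, n = 6) and Sham (n = 6), by the usual meaning of that label operated hearts without infarct. The labels do not say which region of the Sham hearts was taken. MI and Sham served here as outside points of reference. Both patch groups therefore share the infarct and an implanted patch, and differ by label in the patch and its fixation. The labels give no age, no patch material and no statement that each library is a separate rat. The p-values therefore measure the spread between these libraries.

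At this stage an infarct is being cleared of dead muscle by inflammatory cells, while fibroblasts lay down the collagen scar that replaces it. A patch is meant to support the thinning wall during this time. Sutures hold a patch at separate stitches, whereas microneedles enter the tissue beneath it. Sequencing of a piece of tissue reads the mix of muscle, scar and inflammatory cells and the activity of each cell together. A lower level of a muscle transcript, for example, can come from fewer cells of a type or from less RNA per cell, and these cannot be told apart here.

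The deposited table identifies genes by Ensembl ID alone, and the files used here do not pair these IDs with symbols. The labelled tissue could therefore not be checked against its defining markers, and lists of heart genes could not be read. Genes are described by their behaviour, with 2 IDs that rose and 2 that fell given in full. As an outside yardstick, genes were sorted by how they differed between MI and Sham. That contrast was fitted on the MI and Sham libraries alone and has no library in common with the patch groups.

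Totals ranged from 13590783 to 14552623 counts with the microneedle patch and from 12574300 to 14437712 with the sutured patch. The groups overlapped in total and did not differ past the threshold (exact two-sided permutation test over all splits, adjusted p = 0.104). Without Sutured patch replicate 6 the exact test passed (adjusted p = 0.0144). Levels are given in CPM, the count per 1000000 counts of a library after scaling for composition. At these depths 3 counts, taken as the limit of detection, are 0.206 to 0.239 CPM, a limit that covers counting error only. The spread between libraries of a group was similar, with a biological coefficient of variation of 32.2% with the microneedle patch and 32.6% with the sutured patch. Sutured patch replicate 5 stood apart in its rare transcripts: 0.455% of its counts lay outside the genes tested, against 0.10% to 0.192% in the other 11 libraries.

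How many genes separated the 2 modes of fixation one by one depended on the test and on single libraries. Of 13903 genes tested, 58 changed at an adjusted p below 0.05 (0.417%), of which 34 rose (0.245%) and 24 fell (0.173%) with the microneedle patch relative to the sutured patch. The test was edgeR's quasi-likelihood F test with Benjamini-Hochberg adjustment over all genes tested, on these 2 groups alone. DESeq2 called 918 genes and limma-voom with quality weights 575, and both lists contained all 58. When 1 library was left out, edgeR called 1 to 496 genes, and without Sutured patch replicate 6, which gave the 496, the balance turned to 176 higher and 320 lower. Over all genes tested the log2 fold change had a median of -0.012 and quartiles of -0.23 and 0.21. The median standard error was 0.20 on the log2 scale. The 34 genes that rose had log2 fold changes from 0.51 to 3.14 with a median of 1.05, and 21 of them changed at least 2-fold. The 24 genes that fell had log2 fold changes from -0.59 to -2.54 with a median of -1.04, and 12 of them changed at least 2-fold. Adjusted p-values of the 58 genes (edgeR) ran from 0.00943 to 0.0497. Without adjustment, 2703 genes (19.4%) had an edgeR p below 0.05, 1417 of them higher (10.2%) and 1286 lower (9.25%) with the microneedle patch.

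**Figure D1:**
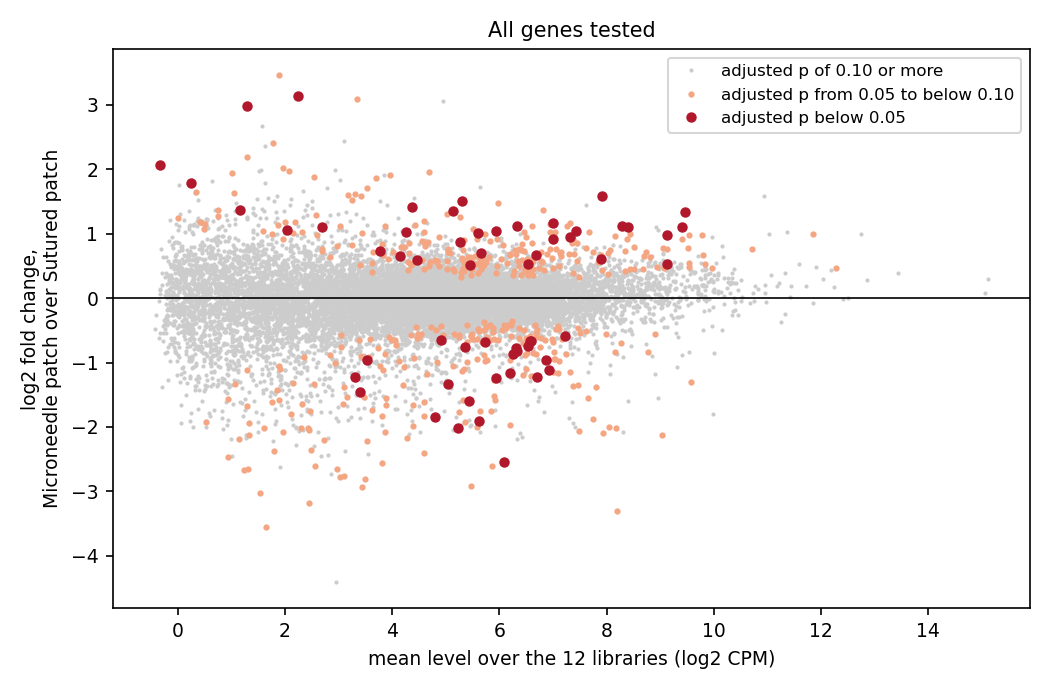
Each point is 1 of 13903 genes, placed by its mean level over the 12 libraries (horizontal axis, log2 CPM) and its log2 fold change, Microneedle patch over Sutured patch (vertical axis). Red points are the 58 genes called at an adjusted p below 0.05, orange points those from 0.05 to below 0.10, and grey points the rest. Most genes lie near 0, and the lowest quartile by level holds 0 genes called lower.

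The called genes were mostly well expressed. The mean level in the higher group had a median of 62.8 CPM among the genes that rose and 90.7 CPM among those that fell, beside 26.1 CPM over all genes tested. Split into quartiles by mean level over the 12 libraries, the top quartile held 16 genes that rose and 13 that fell, and the lowest held 7 and 0. Precision followed the level, with a median standard error of 0.15 log2 units in the top quartile and 0.36 in the lowest. Among the genes tested, none was found switched fully on or off. No tested gene with at most 3 counts over the 6 libraries of 1 patch group averaged 1 CPM or more in the other. Genes that the filter on low counts had removed were not searched for this, including genes carried by few libraries.

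The groups were fully apart in 45 of the 58 called genes. Every microneedle patch library lay above every sutured patch library in 30 of the 34 genes that rose, and below in 15 of the 24 that fell. Over all genes tested, 232 (1.67%) were without overlap, 157 with the microneedle patch higher (1.13%) and 75 with it lower (0.539%). Together the 34 genes that rose held 0.639% ± 0.065 of all counts with the microneedle patch and 0.334% ± 0.047 of them with the sutured patch (SD, n = 6 each). In the same measure, the 24 genes that fell made up 0.10% ± 0.0069 with the microneedle patch and 0.215% ± 0.032 with the sutured patch. Since the genes were picked for this contrast, the shares differ by construction. The lack of overlap in the called genes follows largely from the same choice, so nothing is read from its excess over all genes.

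ENSRNOG00000027990 had the steepest called rise of all IDs that reached a group mean of 10 CPM. Its lowest, median and highest levels were 193, 392 and 463 CPM with the microneedle patch, and 91.2, 111 and 162 CPM with the sutured patch. All 6 microneedle patch libraries lay above all sutured patch libraries, with replicate 5 the lowest of them. The log2 fold change was 1.58 (SE 0.22, edgeR adjusted p = 0.0179), a 3.0-fold higher level. The median in MI, 171 CPM, lay between those of the patch groups, and the median in Sham was 106 CPM. In a fit of all 24 libraries, this ID was higher than MI with the microneedle patch (log2 fold change 1.03, SE 0.27, edgeR adjusted p = 0.0130). With the sutured patch it did not pass the test against the same MI libraries (-0.57, SE 0.26, edgeR adjusted p = 0.231). The ID was picked for its gap between the patch groups, whose libraries these tests reuse, so nothing is read from its tests against MI. The call between the patches was lost without Microneedle patch replicates 1 or 6 (edgeR adjusted p = 0.0514 and 0.0611) and without Sutured patch replicates 4 or 5 (0.0571 and 0.0693).

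ENSRNOG00000027736 had the lowest adjusted p of the comparison. It stood at 45.0, 59.0 and 70.7 CPM (lowest, median and highest) with the microneedle patch and at 12.2, 20.4 and 26.7 CPM with the sutured patch. The groups did not overlap, and microneedle patch replicate 5 was the lowest of its group at 45.0 CPM. The log2 fold change was 1.51 (SE 0.17, edgeR adjusted p = 0.00943), a 2.85-fold higher level. It was the only 1 of the 58 genes that remained called in each of the 12 fits that left out 1 library, with edgeR adjusted p-values from 0.00426 to 0.0411. Its median was 27.4 CPM in MI and 10.8 CPM in Sham. Against MI it was higher with the microneedle patch (log2 fold change 1.05, SE 0.28, edgeR adjusted p = 0.0152), and with the sutured patch it did not pass the test (-0.47, SE 0.28, edgeR adjusted p = 0.355), both from the fit of all 24 libraries, in which the 2 contrasts share the MI libraries. This ID too was picked for its gap between the patch groups, so nothing is read from its tests against MI.

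ENSRNOG00000007539 showed the largest called fall. It had 7.29, 17.8 and 36.4 CPM (lowest, median and highest) with the microneedle patch and 25.3, 122 and 164 CPM with the sutured patch. The groups overlapped through Sutured patch replicate 1, which held the 25.3 CPM, and 4 of 6 microneedle patch libraries lay below every sutured patch library. The log2 fold change was -2.54 (SE 0.44, edgeR adjusted p = 0.0428). The median was 30.3 CPM in MI and 531 CPM in Sham. By median the microneedle patch stood below MI, and the sutured patch between MI and Sham. In the fit of all 24 libraries neither patch passed the test against MI: the log2 fold change was -1.07 with the microneedle patch (SE 0.47, edgeR adjusted p = 0.124) and 1.46 with the sutured patch (SE 0.47, edgeR adjusted p = 0.0787). As the ID was picked for its gap between the patch groups, nothing is read from its place relative to MI. The call between the patches was lost without Microneedle patch replicates 1, 2, 4 or 6 or Sutured patch replicates 3, 4 or 5, with edgeR adjusted p-values from 0.0566 to 0.103. It was also lost with no filter on low counts (0.0610).

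ENSRNOG00000037371 fell in a like manner. It had 10.2, 11.9 and 28.1 CPM (lowest, median and highest) with the microneedle patch and 14.04, 65.2 and 81.8 CPM with the sutured patch. Again 4 of 6 microneedle patch libraries lay below every sutured patch library, and Sutured patch replicate 1 was the low one of its group, with its other libraries at 55.7 CPM or more. The log2 fold change was -2.02 (SE 0.37, edgeR adjusted p = 0.0456). The median was 26.7 CPM in MI and 138 CPM in Sham. The call was lost without Microneedle patch replicates 1, 2, 4, 5 or 6 or Sutured patch replicates 3, 4 or 5 (edgeR adjusted p = 0.0510 to 0.121), with no filter (0.0632) and in the fit of all 24 libraries (0.0621). Reads shared by any of these 4 with overlapping or near-identical genes were not tested for.

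**Figure D2:**
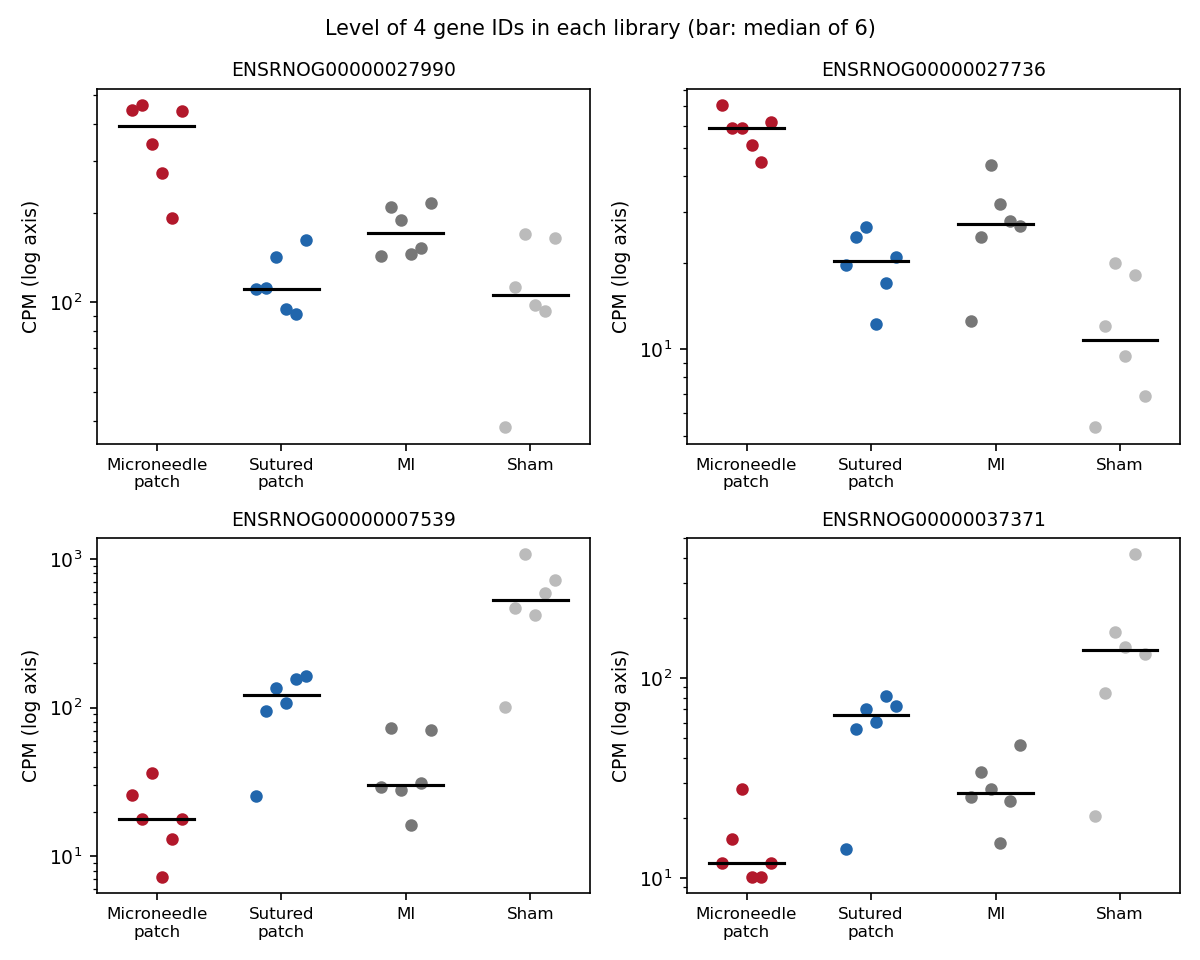
Level of the 4 IDs in each library (CPM, log axis), with groups from left to right and a bar at the median of 6 libraries. In the upper IDs all 6 microneedle patch libraries lie above all 6 sutured patch libraries, and in the lower IDs 1 sutured patch library (replicate 1) sits within the range of the microneedle patch libraries.

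On the outside yardstick, most called genes differed between MI and Sham in the same direction as between the patches. Of the 34 genes that rose with the microneedle patch relative to the sutured patch, 30 were tested in MI against Sham, and 23 of them were higher in MI, 2 were lower and 5 did not pass the test. Of the 24 genes that fell, all were tested, and 22 were lower in MI than in Sham, 0 were higher and 2 did not pass. Over all 13777 genes tested in MI against Sham (edgeR, adjusted p below 0.05), 40.4% changed, 19.8% higher and 20.6% lower in MI. The 58 genes were selected between the patches and not between MI and Sham. The mean level in MI lay between the patch groups for 21 of the 34 genes that rose and 18 of the 24 that fell, beside 3117 of all 13903 genes. The called genes were chosen for a gap between the patch groups, so nothing is read from that contrast. The mean level in Sham lay below both patch groups for 28 of the 34 and above both for 22 of the 24, beside 6190 below and 6176 above of all 13903.

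In a wider set, most genes that passed the test in MI against Sham again had the same direction there as between the patches. At an adjusted p below 0.10, a threshold chosen after the data were seen, 478 genes differed between the patches (3.44%), 258 of them higher (1.86%) and 220 lower (1.58%) with the microneedle patch. Of the 258, 244 were tested in MI against Sham, with 132 higher and 14 lower in MI. Of the 220, 218 were tested, with 10 higher and 152 lower in MI. The mean level in MI lay between the patch groups for 159 of the 258 and 103 of the 220, and above both for 100 of the 220. The steep end of the distribution was uneven, whatever the p: 198 genes were at least 2-fold higher with the microneedle patch and 500 at least 2-fold lower. Most of these did not pass the test, since 33 of the 698 were called, and their median standard errors were 0.45 and 0.54 log2 units. The patch groups were without overlap in 40 of the 198 and in 12 of the 500, beside 232 of all 13903 genes tested. The 500 genes held 0.823% ± 0.095 of counts with the microneedle patch and 2.51% ± 0.92 of them with the sutured patch (SD, n = 6 each), a difference fixed by their selection. Single sutured patch libraries ran from 1.53% to 3.97% in this share. The mean level in MI lay above both patch groups for 306 of the 500 and between them for 117. Over all 13903 genes tested it lay above both for 5116 and between them for 3117. These sets too were chosen for a gap between the patch groups, so nothing is read from where MI lay or from the lack of overlap.

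When genes were instead chosen by MI against Sham alone, the patch groups differed in the same sense. The 1504 genes at least 2-fold lower in MI than in Sham held 6.10% ± 0.62 of counts with the microneedle patch and 8.37% ± 1.04 of them with the sutured patch (SD, n = 6 each). The lowest, median and highest libraries were at 5.28%, 6.10% and 6.99% with the microneedle patch and at 6.57%, 8.79% and 9.30% with the sutured patch. Only Sutured patch replicate 6, at 6.57%, reached into the range of the microneedle patch. The difference of -2.27 percentage points passed an exact two-sided permutation test over all splits (p = 0.00433, adjusted p = 0.00866 over both sets of genes). These 1504 genes held 9.49% ± 2.15 in MI and 30.5% ± 2.13 in Sham (SD, n = 6 each), groups in which they were chosen. MI libraries ran from 6.85% to 13.3%. Of the microneedle patch libraries only replicate 2, at 6.99%, lay within that range and the others lay below it. Sutured patch replicate 6 also lay below it, and the other sutured patch libraries lay within.

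The 1819 genes at least 2-fold higher in MI than in Sham held 30.9% ± 1.58 of counts with the microneedle patch and 27.4% ± 1.79 of them with the sutured patch (SD, n = 6 each). The lowest, median and highest libraries were at 29.2%, 30.7% and 33.1% with the microneedle patch and at 25.2%, 27.3% and 29.99% with the sutured patch. Here too Sutured patch replicate 6 was the library that overlapped, as the highest of its group. The difference was 3.51 percentage points (exact two-sided permutation test, p = 0.00866, adjusted p = 0.00866 over both sets). These 1819 genes held 29.1% ± 3.31 in MI and 5.47% ± 0.46 in Sham (SD, n = 6 each), groups in which they were chosen. MI libraries ran from 23.8% to 33.2%, a range that takes in every library of both patch groups. Leaving out any 1 library gave differences from -2.63 to -2.08 points for the genes lower in MI and from 3.07 to 4.04 points for the genes higher in MI. Every such exact permutation test stayed past the threshold, with adjusted p-values up to 0.0195. The choice of both tests followed a look at the data. The Sham libraries used to choose the genes were shallower than all others, with 5443782 to 11757562 counts, and the part of that depth in the choice was not tested.

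**Figure D3:**
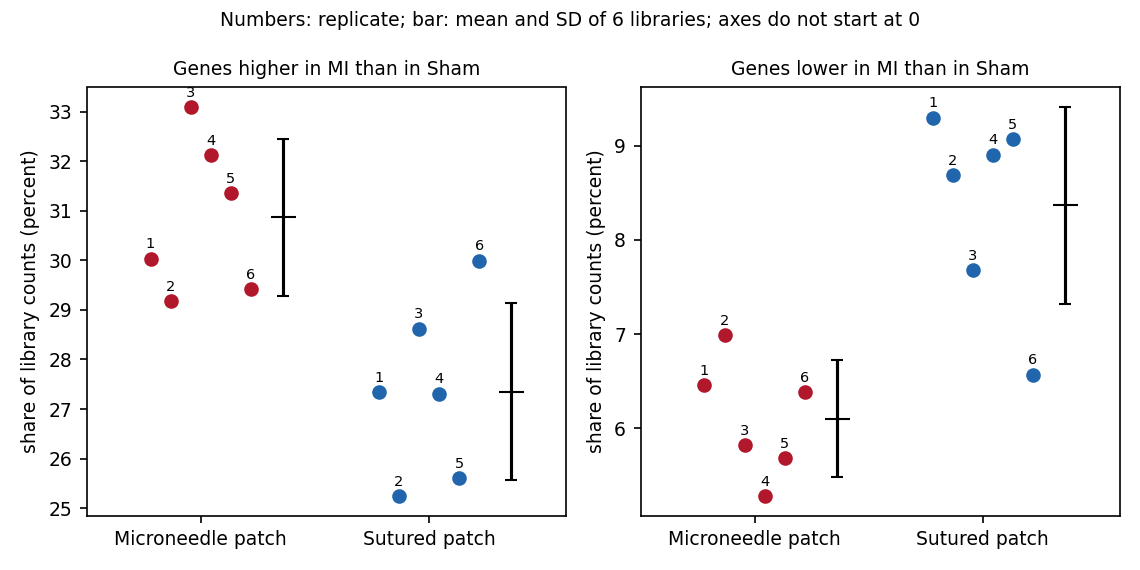
Share of each library's counts (percent) held by the 1819 genes higher (left) and the 1504 genes lower (right) in MI than in Sham by at least 2-fold, with replicate numbers beside the points and the mean and SD of 6 libraries as bars. The axes do not start at 0. Microneedle patch libraries lie higher on the left and lower on the right, and Sutured patch replicate 6 overlaps them in both panels.

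The difference between the patches was graded along this yardstick. In 41 genes the level in MI was over 3 log2 units under Sham, and their median for the microneedle over the sutured patch was a log2 fold change of -1.06. It was -0.41 in the 251 genes between 3 and 2 units lower, -0.23 in the 1299 genes between 2 and 1 units lower, -0.038 in the 2012 genes between 1 and 0.5 units lower, and -0.0042 in the 3430 genes lower by less than 0.5 units. On the other side it was 0.012 in the 2847 genes higher by less than 0.5 units and 0.023 in the 1483 genes between 0.5 and 1 units higher. It was 0.062 in the 1335 genes between 1 and 2 units higher, 0.14 in the 464 genes between 2 and 3 units higher and 0.24 in the 281 genes above 3 units. The share of genes with a negative fold change went down along the same order, 82.9% in the first of these bins and 30.96% in the last. Individual genes departed widely from the medians: in the genes above 3 units the quartiles were -0.068 and 0.61. These values describe genes, which are not independent replicates.

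**Figure D4:**
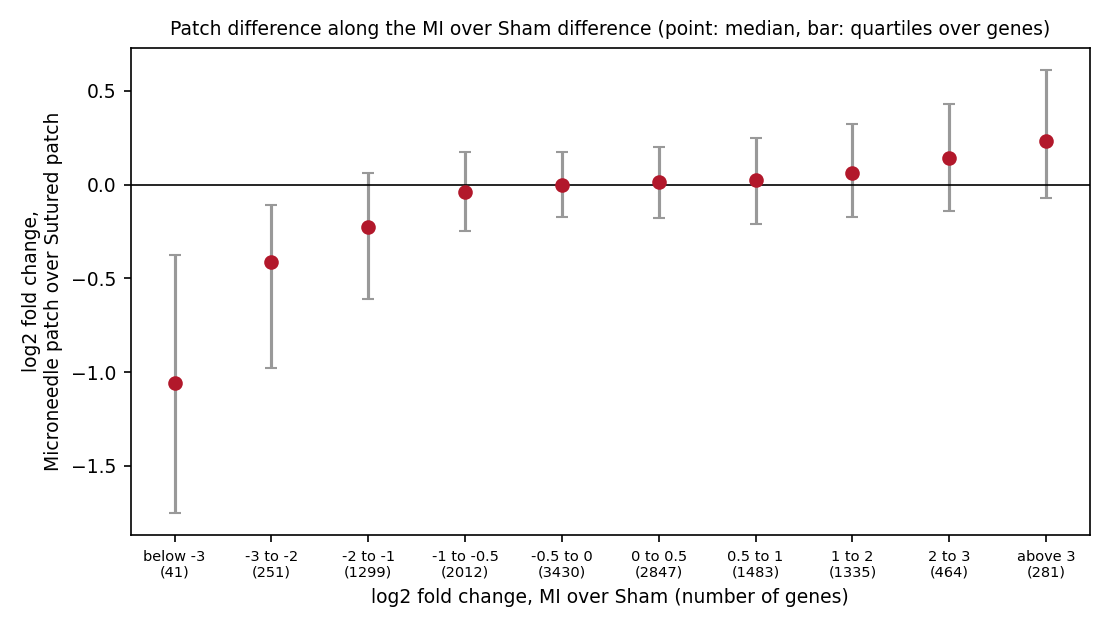
Median (point) and quartiles (bar) over genes of the log2 fold change, Microneedle patch over Sutured patch, in bins of the log2 fold change MI over Sham (horizontal axis, number of genes in brackets). The medians lie at -1.06 at the left end, close to 0 in the middle and at 0.24 at the right end.

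The most abundant transcripts also took a larger part of the library with the microneedle patch. In each library the counts of the top 10 genes were summed, and they made up 12.96% ± 0.32 of all counts with the microneedle patch and 11.4% ± 0.93 (SD, n = 6 each) with the sutured patch. The range was 12.4% to 13.4% with the microneedle patch and 10.1% to 12.2% with the sutured patch, without overlap. The 100 most abundant held 27.5% ± 0.80 with the microneedle patch and 24.9% ± 0.99 with the sutured patch. The range was 26.2% to 28.2% with the microneedle patch and 22.9% to 25.6% with the sutured patch, again without overlap. Both differences had an exact two-sided permutation p of 0.00216, the smallest that the splits of 6 and 6 libraries can give, and an adjusted p of 0.00433 over 4 measures per library. Of the top 100 by mean level with the microneedle patch, 58 were higher and 4 lower in MI than in Sham. The share of the top 100 and that of the genes higher in MI therefore count many of the same genes. By mean level, the same 10 genes led in both groups, and 80 of the top 100 were shared. Of these 10 genes, 9 had a positive log2 fold change, from -0.019 to 0.99 with a median of 0.29, 0 were called singly (edgeR, lowest adjusted p = 0.0900), and 8 were higher in MI than in Sham. With these 10 genes taken out of the counts, the genes higher in MI held 23.3% ± 1.599 with the microneedle patch and 20.4% ± 1.42 with the sutured patch, and the genes lower in MI held 7.00% ± 0.71 with the microneedle patch and 9.43% ± 1.15 with the sutured patch. Genes detected by 1 count or more gave no difference past the threshold, with 16877 to 17380 with the microneedle patch and 16359 to 17404 with the sutured patch (exact permutation p = 0.764).

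The libraries of each group were far from uniform. The first principal component of the 12 libraries (37.1% of the variance of log2 CPM) ranged from -33.1 to 72.9 with the microneedle patch and from -49.0 to 39.3 with the sutured patch. Microneedle patch replicates 1, 2 and 6 and Sutured patch replicate 2 lay at 39.2 or more on it, and the other 8 libraries lay below 0. The second component (16.3%) ranged from -37.8 to 1.47 with the microneedle patch and from -31.2 to 44.1 with the sutured patch, where replicate 6 alone lay below 0. Neither component separated the groups completely. In the called genes, Sutured patch replicate 1 was the lowest of its group in 14 of the 34 genes that rose and in 14 of the 24 that fell. Microneedle patch replicate 3 was the highest of its group in 15 of the 34 and 8 of the 24. These ranks are not given over all genes tested, so whether these libraries were extreme in general cannot be told from them.

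The number of called genes depended strongly on single libraries. It fell to 1, 6, 29, 9 and 2 without Microneedle patch replicates 1, 2, 3, 4 and 6, and to 26, 1 and 1 without Sutured patch replicates 3, 4 and 5. It rose to 73 without Microneedle patch replicate 5, and to 83, 80 and 496 without Sutured patch replicates 1, 2 and 6. The directions were steadier than the count: in each of the 12 fits all 58 genes kept their direction and had an unadjusted p below 0.05. The 58 genes had been chosen with all 12 libraries, most of which are in each of these fits.

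**Figure D5:**
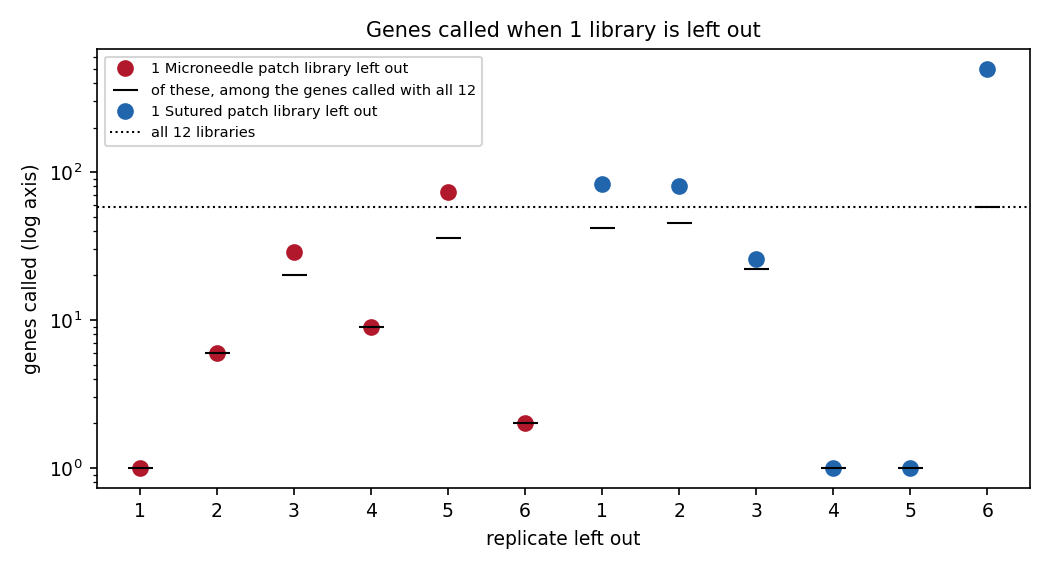
Number of genes called at an adjusted p below 0.05 (log axis) when 1 library is left out, by the replicate left out, with the number shared with the 58 genes of all 12 libraries as a dash and 58 as a dotted line. The count ranges from 1 to 496, with 496 without Sutured patch replicate 6.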

How the data were processed

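RNA was extracted with Trizol and sequenced from NEBNext Ultra libraries, per the labels' protocols. The deposited table gives 1 column of unpooled raw counts per library, by Ensembl gene ID. Alignment and counting used HISAT2, featureCounts and the build rn6, per the submitters' processing notes. Not given in the sources used here are versions, annotation release, strand setting and how multi-mapping reads were treated, so that overlapping or antisense genes may share counts. Of 32883 IDs, 0 could be paired with a symbol, and 0 of 47 prepared gene lists and marker sets were used.

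The 12 patch libraries were fitted alone with edgeR 4.0.16 (R 4.3.3). The steps were filterByExpr (minimum count 10), TMM, robust dispersions and the robust quasi-likelihood F test with 10 residual degrees of freedom. MI and Sham were fitted alone in the same way. Standard errors were taken as |log2 fold change| / sqrt(F). Genes tested held 99.5% to 99.9% of each library's counts. Levels in CPM use TMM over all 24 libraries, so that the 4 groups share 1 scale. Shares use raw totals, and exact permutation tests compare group means. IDs named were the 2 largest called changes each way whose higher group averaged 10 CPM or more. The fit was run on simulated data with 200 changed genes. Genes were drawn independently there, so that run cannot measure false calls under variation that genes share. Replicates of a group differed beyond sampling noise in every pair (chi-square at least 16.4 per degree of freedom). Alternatives used DESeq2 1.42.0, limma 3.58.1, other filters and scaling, all 24 libraries, a replicate block, and leaving out each library. The comparison, the yardstick and the lists were chosen with earlier results of these data known.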

Additional observations from a re-analysis of the deposited data

Results flagged for a closer look

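In 20 checks of a group of 6 libraries for 1 library far from the others, 3 values were picked out, and chance picks about 1 in 20. Microneedle patch replicate 3 had 28.1 CPM of ENSRNOG00000037371, where the next library of its group had 15.8 CPM. Sutured patch replicate 2 had 16359 genes with at least 1 count, where the next lowest library of its group had 17155. Sutured patch replicate 5 had 22.9% of its counts in its 100 most abundant genes, where the next lowest had 24.8%. The causes were not tested.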

How the results depend on the processing

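The count of 58 called genes stayed within 1.5 times with other size factors (58), a filter at 1 CPM in 6 libraries (56), non-robust estimation (59, chosen after the data were seen) and a fit of all 24 libraries (46, of which 23 were among the 58). It was 19 with no filter, where more genes are tested, 918 with DESeq2, 575 with limma-voom and 478 at an adjusted p below 0.10. A 2-fold minimum left 0 genes by edgeR's glmTreat, with 199 at an unadjusted p below 0.05. The same replicate numbers occur in both groups, but deviations of same-numbered libraries correlated at -0.056 to 0.44 and 1 of 6 correlated best with its own number, so the numbers were not taken to pair the libraries. With a replicate block 97 genes were called, 31 of them among the 58, and ENSRNOG00000007539 was not called (edgeR adjusted p = 0.0543). Leaving out 1 library gave 1 to 496 called genes. All 58 genes kept their direction under every alternative in which they were tested. The 58 had been chosen for their difference in these same libraries, so a turn of direction was unlikely beforehand. Over 8 alternatives without the 2-fold minimum, edgeR, DESeq2 and limma adjusted p-values ranged up to 0.0291 for ENSRNOG00000027990, 0.0330 for ENSRNOG00000027736, 0.0610 for ENSRNOG00000007539 and 0.0632 for ENSRNOG00000037371. With the 2-fold minimum all 4 had an adjusted p of 1.

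For genes detected with 1 count or more, the difference microneedle patch minus sutured patch was 76.8 and turned to -88.8 with a minimum of 10 counts. It ranged from -66.9 (without Sutured patch replicate 2) to 142 when 1 library was left out. The difference in total count ranged from 497330 to 870010 when 1 library was left out, and passed the exact permutation test without Sutured patch replicate 6. The causes of these shifts were not tested. The shares of the 10 and 100 most abundant genes and of the genes chosen by MI against Sham kept their direction and their side of the threshold in each alternative run. Depth allowed a floor of 0.206 to 0.239 CPM.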

Other observations

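Of the genes outside the test for low counts, Sutured patch replicate 5 had 26 with at least 100 counts, of which 14 had under 10 counts in each of the other 11 patch libraries. No other patch library had more than 2 such genes, the 2 being in Sutured patch replicate 4. In all, 57212 counts of Sutured patch replicate 5 lay outside the genes tested, against 14198 to 24326 in the other 11 libraries.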
